A study of Mus musculus with 2 samples.

Results

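Neurexins, neuroligins and leucine-rich repeat transmembrane neuronal proteins (LRRTMs) are cell adhesion proteins that join the 2 sides of a synapse, and 8 of their genes are described here: Nrxn2, Nrxn3, Nlgn1, Nlgn2, Nlgn3, Lrrtm1, Lrrtm2 and Lrrtm3. They were taken by symbol from the deposited gene counts, which list 32531 genes, and all 8 were found. The remaining neurexin gene was not analysed here, and the LRRTM gene Lrrtm4 was counted among the other extracellular partners. The RNA came from dorsal striatum of mice of the Drd1-TRAP line CP73, which carry an EGFP-tagged Rpl10a transgene driven from a Drd1 bacterial artificial chromosome and whose FVB/N and Swiss Webster founder background was crossed to C57BL/6 for 9 generations or more. All mice had taken cocaine intravenously by self-administration in long-access sessions. There was 1 library from the escalating group and 1 from the nonescalating group, both of the input, the total RNA of the dissected tissue before any purification of tagged ribosomes. The sources used here give no number of mice per library, no sex and no age, and no cocaine-naive library was analysed.

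Neurexins sit mainly in the presynaptic membrane. Across the synaptic cleft they bind neuroligins, LRRTMs and several other partners on the receiving cell, and inside the nerve terminal their tails bind scaffold proteins such as Cask. Neuroligins and LRRTMs help to hold receptors in the postsynaptic membrane: Nlgn1 is found mostly at excitatory synapses, Nlgn2 mostly at inhibitory ones and Nlgn3 at both, while the LRRTMs act at excitatory synapses. Most striatal neurons are inhibitory projection neurons that receive excitatory input from cortex and thalamus, so dorsal striatum holds both kinds of contact.

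With 1 library per group no test of the conditions is possible. Each ratio below compares these libraries, with a 95% exact counting interval that covers counting error only and takes no account of variation between animals. Assigned reads came to 9548358 (escalating) and 9376097 (nonescalating). Levels are given in CPM, the reads of a gene per 1000000 reads after scaling by the trimmed mean of M-values (TMM), and a gene was called at 1.5-fold or more with an interval that excluded 1. Among 12213 genes with at least 50 reads over both libraries, 1140 were called higher and 2091 lower in the escalating library. Scaled to total assigned reads alone, 3850 were higher and 1149 lower, because the median log2 ratio of all measured genes was 0.38 with that scaling and 0.02 with TMM. The libraries also differed in glial RNA: all 15 astrocyte markers were lower, with summed levels of 2423 CPM in the escalating library and 16428 in the nonescalating library, and all 12 microglial markers were lower, with sums of 34.9 (escalating) and 1552 (nonescalating) and no read for Trem2 in the escalating library. Of 10 oligodendrocyte markers, 7 were lower. In bulk RNA, fewer cells of a type and less RNA per cell cannot be told apart. The 14 pan-neuronal markers had a median log2 ratio of 0.29 and the 11 markers of striatal projection neurons, which include Ppp1r1b and Pde10a, a median of -0.14. Ppp1r1b stood at 1717 CPM (escalating) and 932 CPM (nonescalating).

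Lrrtm2 was the only one of the 8 genes that passed the threshold. It was lower in the escalating library, and it remained so, by a narrow margin, when counts were scaled to total reads. Nrxn3, the most abundant of the 8, differed least with TMM scaling but not with total-read scaling, where Nlgn1 did, and with TMM Nlgn3 stood just inside the threshold. All 8 log2 ratios lay below 0 with TMM scaling, between -0.95 and -0.19 with a median of -0.33. With total-read scaling 4 of them lay above 0 and the median was 0.03, so the direction of Nrxn3, Nlgn2, Lrrtm1 and Lrrtm3 depends on the scaling. Of the 12213 measured genes, 5935 lay below 0 with TMM scaling and 3241 with total-read scaling. The 1 called member of 8 stands beside 17.1% of all measured genes called lower and 9.33% called higher. Centred on the pan-neuronal markers, 4 of the 8 (Nrxn2, Nlgn1, Nlgn3 and Lrrtm2) were called lower and 0 higher, beside 28.8% and 2.77% of all measured genes. At a threshold of 2-fold 0 of the 8 were called, beside 8.93% of measured genes lower and 2.01% higher.

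**Figure D1:**
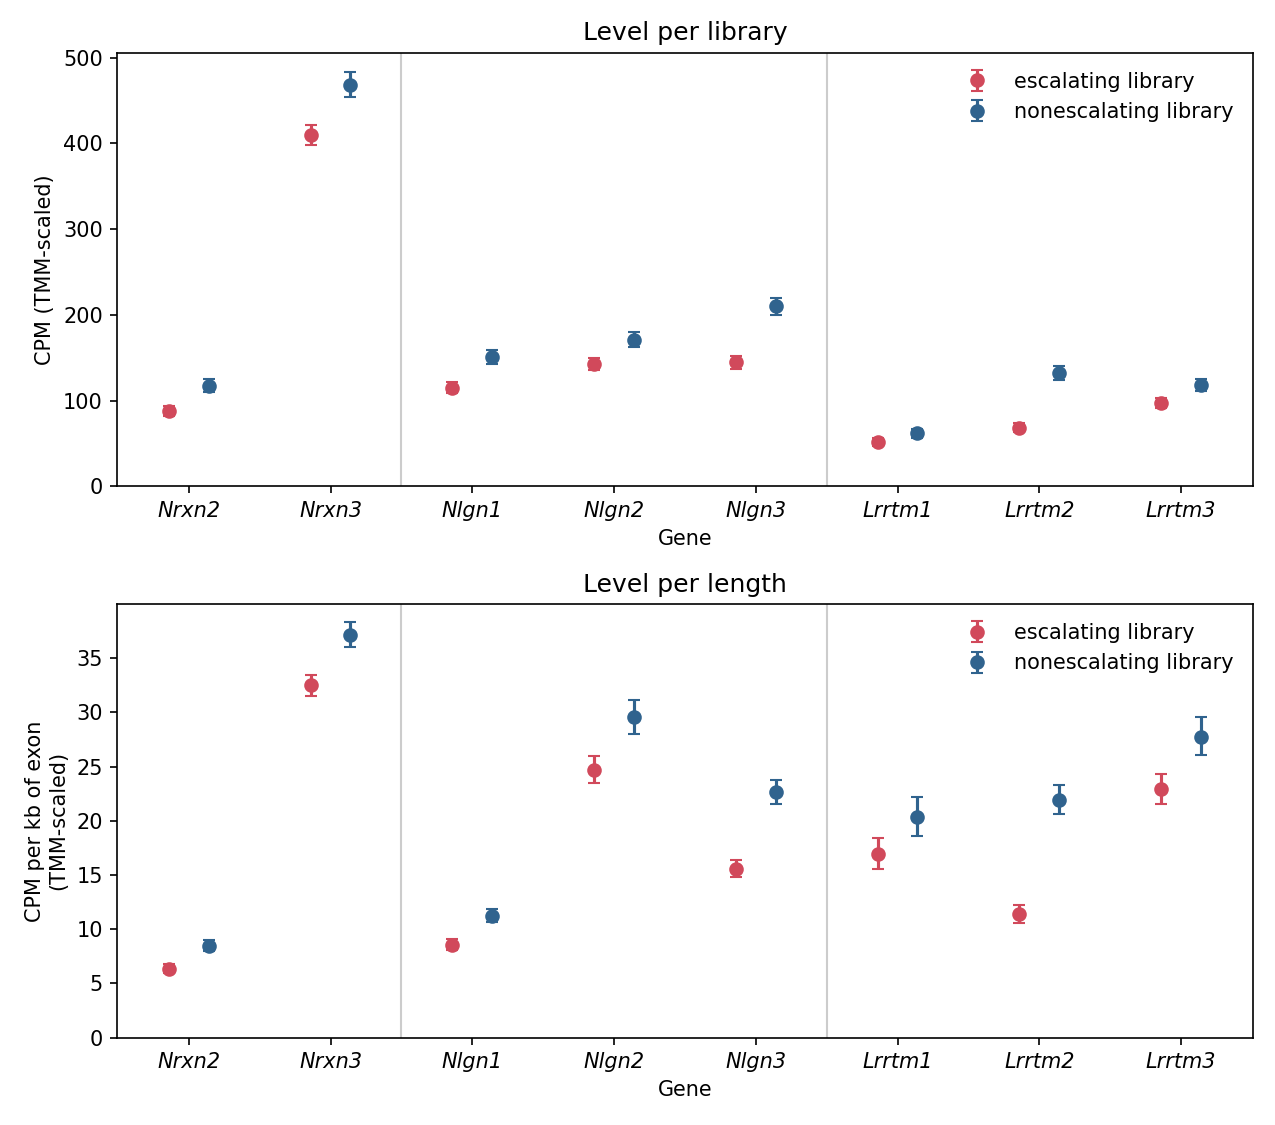
Levels of the 8 genes in the escalating (red) and nonescalating (blue) library, in CPM (top) and in CPM per kilobase of exon (bottom). Bars are exact 95% counting intervals; Lrrtm2 shows the widest gap between the libraries in proportion to its level, with 68.4 CPM (escalating) and 132 CPM (nonescalating).

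Among the neurexins, Nrxn3 (chromosome 12, 88722876 to 90334935, plus strand of mm10) had 4431 reads in the escalating library and 3876 in the nonescalating library. After scaling this was 409 CPM (398 to 422, escalating) and 468 CPM (454 to 483, nonescalating), a log2 ratio of -0.19 (-0.26 to -0.13). The ratio became 0.17 (0.10 to 0.23) when counts were scaled to total reads. Both intervals exclude 0, on opposite sides. Nrxn2 (chromosome 19, 6418731 to 6544169, plus strand) had 949 reads in the escalating library and 968 in the nonescalating library, which gave 87.7 CPM (escalating) and 117 CPM (nonescalating). Its log2 ratio was -0.42 (-0.55 to -0.29), and with total-read scaling -0.055 (-0.19 to 0.08). Each neurexin gene makes long alpha and short beta forms from separate promoters, and many splice variants that choose between partners; the gene counts add these up and do not show them.

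Nrxn3 dominated this pair in both libraries. Its share of the pair's reads was 82.4% in the escalating library, with an interval of 81.3 to 83.4, and 80.0% in nonescalating tissue (78.9 to 81.1). A comparison of reads between genes of the same library does not depend on the scaling. There were 0.214 Nrxn2 reads per Nrxn3 read in the escalating library and 0.250 in the nonescalating library, a log2 difference of -0.22 (-0.37 to -0.08).

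The neuroligins are the classical neurexin partners on the receiving side. Nlgn1 (chromosome 3, 25426215 to 26332460, minus strand) had 1245 reads in the escalating library and 1248 in the nonescalating library. Scaled, these were 115 CPM (109 to 122, escalating) and 151 CPM (143 to 159, nonescalating), a log2 ratio of -0.39 (-0.51 to -0.28). Nlgn2 (chromosome 11, 69823122 to 69837784, minus strand) had 1545 and 1415 reads in the escalating and nonescalating library. It stood at 143 CPM (136 to 150) in escalating and 171 CPM (162 to 180) in nonescalating tissue, a log2 ratio of -0.26 (-0.37 to -0.16). With total-read scaling Nlgn1 and Nlgn2 had log2 ratios of -0.030 (-0.14 to 0.085) and 0.10 (-0.0044 to 0.21), and both intervals hold 0.

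Nlgn3 (X chromosome, 101299168 to 101325963, plus strand) had the most reads of the 3 neuroligins in each library, 1563 (escalating) and 1737 (nonescalating), although in the escalating library the 1545 reads of Nlgn2 lie within its counting error. Its level was 144 CPM (137 to 152) in escalating and 210 CPM (200 to 220) in nonescalating tissue. The difference, 1.45-fold lower (1.36 to 1.56), stayed under the 1.5-fold threshold. Its log2 ratio was -0.54 (-0.64 to -0.44), and -0.18 (-0.28 to -0.08) with total-read scaling, below 0 on both scales. Besides neurons, astrocytes and oligodendrocyte precursors are known to express Nlgn3. The astrocyte list had a median log2 ratio of -1.55 and the precursor list, with 3 of 8 genes lower and 1 higher, a median of -0.25; the part of either in the Nlgn3 value was not tested.

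Within the neuroligin family the balance between Nlgn2 and Nlgn3 differed between the libraries. There were 0.988 Nlgn2 reads per Nlgn3 read in the escalating library and 0.815 in the nonescalating library, a log2 difference of 0.28 (0.13 to 0.42). Nlgn3 made up 35.9% of neuroligin reads (34.5 to 37.4) in escalating tissue, against 39.5% (38.0 to 40.9) in nonescalating tissue. Nlgn2 made up 35.5% (34.1 to 36.9) in escalating and 32.2% (30.8 to 33.6) in nonescalating tissue. The share of Nlgn1 was 28.6% (27.3 to 30.0) and 28.4% (27.0 to 29.7) in the escalating and nonescalating library, and these intervals overlap.

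The LRRTMs are the second family of postsynaptic neurexin partners described here. Lrrtm2 (chromosome 18, 35209003 to 35215024, minus strand) had 740 reads in the escalating library and 1092 in the nonescalating library. Scaled, it stood at 68.4 CPM (63.5 to 73.5) in escalating and 132 CPM (124 to 140) in nonescalating tissue. That is 1.93-fold lower (1.76 to 2.12), a log2 ratio of -0.95 (-1.09 to -0.81). With total-read scaling its log2 ratio was -0.59 (-0.72 to -0.45), just past the 1.5-fold threshold of 0.58 in size, on a scale where 9.41% of measured genes were called lower and 31.5% higher. Of all measured genes, 9.69% had a log2 ratio as low as that of Lrrtm2 or lower.

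Lrrtm1 and Lrrtm3 stood apart from it. Lrrtm1 (chromosome 6, 77242689 to 77257791, plus strand) had 557 reads in the escalating library and 511 in the nonescalating library, or 51.5 (47.3 to 55.9) CPM (escalating) and 61.8 (56.5 to 67.4) CPM (nonescalating). Lrrtm3 (chromosome 10, 63928472 to 64090277, minus strand) had 1054 reads in the escalating library and 976 in the nonescalating library, or 97.4 (91.6 to 103) CPM (escalating) and 118 (111 to 126) CPM (nonescalating). Their log2 ratios were -0.26 (-0.44 to -0.09) for Lrrtm1 and -0.28 (-0.40 to -0.15) for Lrrtm3, close to each other. With total-read scaling they were 0.10 (-0.08 to 0.27) and 0.085 (-0.042 to 0.21), again with 0 inside both intervals.

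The make-up of the reads of these 3 LRRTM genes therefore differed, whatever the scaling. There were 0.702 Lrrtm2 reads per Lrrtm3 read in the escalating library and 1.12 in the nonescalating library, a log2 difference of -0.67 (-0.86 to -0.49). Between Lrrtm1 and Lrrtm2 the log2 difference was 0.69 (0.46 to 0.91). Between Lrrtm1 and Lrrtm3 it was 0.01 (-0.20 to 0.23), with 0.528 and 0.524 Lrrtm1 reads per Lrrtm3 read in the escalating and nonescalating library. Of the reads of the 3 genes, Lrrtm2 held 31.5% (29.6 to 33.4) in escalating and 42.3% (40.4 to 44.3) in nonescalating tissue. Lrrtm3 held the most in the escalating library, 44.8%, against 37.8% in the nonescalating library.

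**Figure D2:**
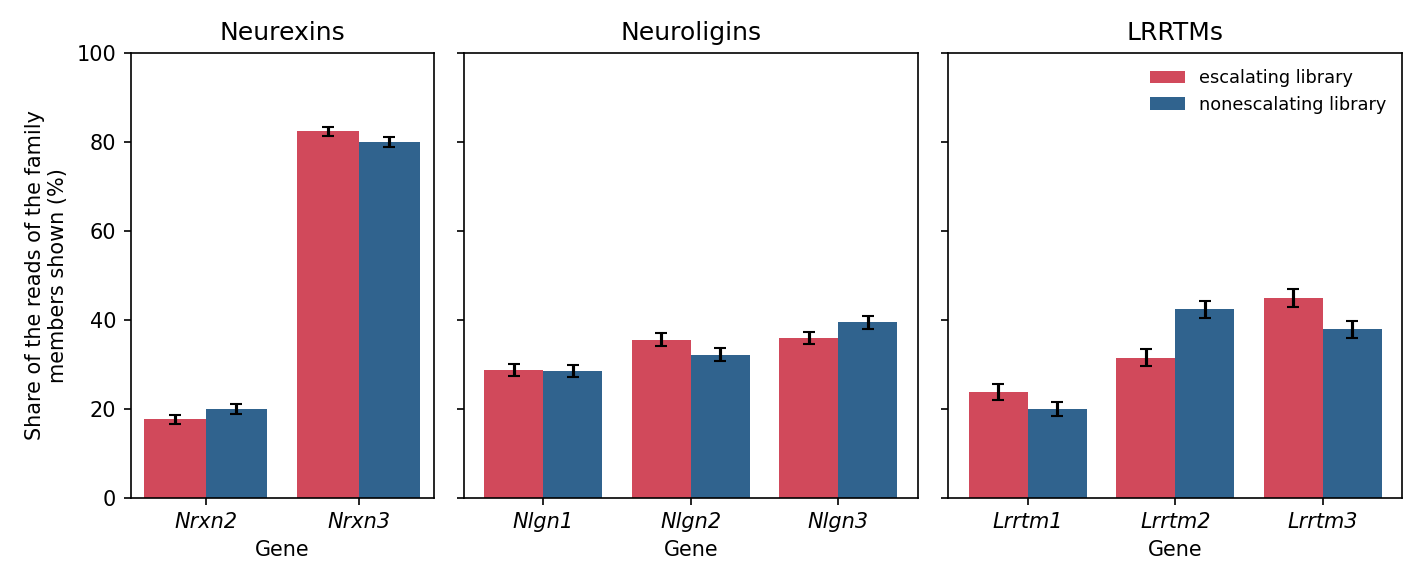
Share of the reads of the family members shown held by each gene, in percent, in the escalating (red) and nonescalating (blue) library. Bars are exact 95% binomial intervals, and these shares do not depend on the scaling. The widest gap is that of Lrrtm2, at 31.5% (escalating) and 42.3% (nonescalating).

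Each LRRTM gene lies within an alpha-catenin gene, which codes for a cytoskeletal linker of cadherin junctions, on its opposite strand: Lrrtm1 within Ctnna2, Lrrtm2 within Ctnna1 and Lrrtm3 within Ctnna3. Whether counting used strand is not given in the sources read here. Without strand, unspliced host RNA that lies over an LRRTM exon cannot be told apart from LRRTM reads. Reads over exons of both genes may then be assigned to neither. Exons of Ctnna1 cover 95 of the 6022 exonic bases of Lrrtm2, and no host exon overlaps Lrrtm1 or Lrrtm3. Host introns span the other exonic bases, and their part in the LRRTM counts was not tested. Ctnna1 had 570 reads in the escalating library and 613 in the nonescalating library, a log2 ratio of -0.49 (-0.66 to -0.33) that did not reach 1.5-fold. Ctnna2 had 627 and 440 reads in the escalating and nonescalating library and a log2 ratio of 0.12 (-0.05 to 0.30). Ctnna3, with 22 (escalating) and 13 (nonescalating) reads, had too few to be measured.

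Summed by family over the genes described, the ratio was lowest for the LRRTMs, of which Lrrtm2 alone was called. The log2 ratios of Lrrtm1 (-0.26) and Lrrtm3 (-0.28) each lay above that of the summed neuroligins. Lrrtm4, with a log2 ratio of -0.07, was not part of the sum. The 3 LRRTM genes had 2351 reads in the escalating library and 2579 in the nonescalating library, a log2 ratio of -0.52 (-0.60 to -0.44). The 3 neuroligins had 4353 (escalating) and 4400 (nonescalating) reads and a log2 ratio of -0.40 (-0.46 to -0.34), and the pair of neurexins 5380 (escalating) and 4844 (nonescalating) reads and a log2 ratio of -0.24 (-0.29 to -0.18). With total-read scaling these became -0.16 for LRRTMs, -0.042 for neuroligins and 0.13 for neurexins; a change of scaling shifts all 3 alike.

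**Figure D3:**
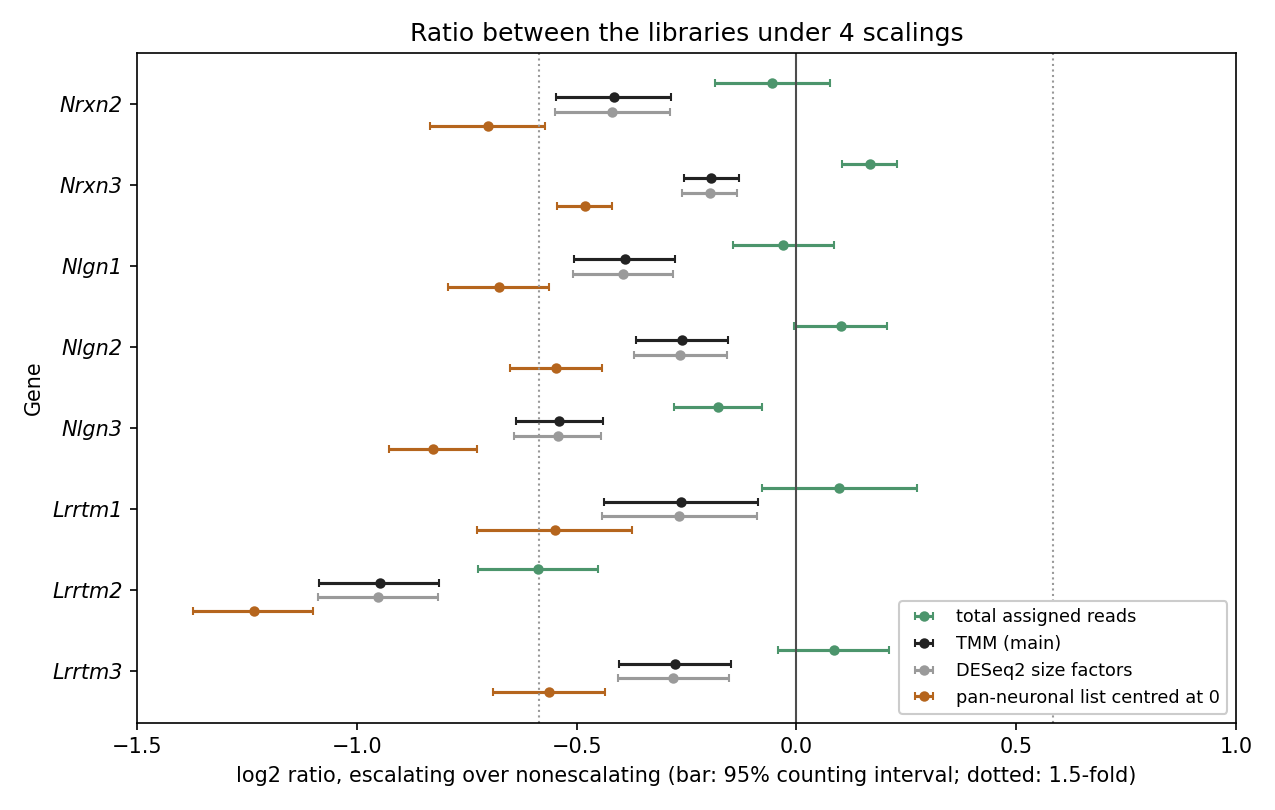
Log2 ratio of escalating over nonescalating for each gene under 4 scalings, with 95% counting intervals; dotted lines mark 1.5-fold. Lrrtm2 lies past the lower line under each of these scalings (from -0.59 to -1.24), while the other 7 genes move across it or across 0 as the scaling changes.

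Levels of different genes were compared per length, in CPM per kilobase of annotated exon. In the escalating library the order was Nrxn3 (32.5), Nlgn2 (24.7), Lrrtm3 (22.9), Lrrtm1 (17.0), Nlgn3 (15.6), Lrrtm2 (11.4), Nlgn1 (8.57) and Nrxn2 (6.35). The intervals of Nlgn2 and Lrrtm3 overlapped, as did those of Lrrtm1 and Nlgn3. In the nonescalating library the order was Nrxn3 (37.2), Nlgn2 (29.6), Lrrtm3 (27.8), Nlgn3 (22.6), Lrrtm2 (21.9), Lrrtm1 (20.4), Nlgn1 (11.2) and Nrxn2 (8.47). There the intervals of Nlgn2 and Lrrtm3 overlapped again, and those of Nlgn3, Lrrtm2 and Lrrtm1 overlapped from each to the next, so Lrrtm2 lay below Lrrtm1 and Nlgn3 beyond the counting intervals in the escalating library and not in the nonescalating library. Nlgn3 had the most neuroligin reads, but per length Nlgn2 led the family, with 50.5% of its length-corrected reads in the escalating library and 46.6% in the nonescalating library. In level per length, Nrxn3 was at or above 93.5% (escalating) and 94.1% (nonescalating) of the measured genes with a gene model. Nrxn2, the lowest of the 8, was at or above 59.9% (escalating) and 67.1% (nonescalating) of them. With the longest transcript in place of all exons, Nrxn2 stood at 13.2 (escalating) and 17.5 (nonescalating) and Nlgn1 was last, with 9.74 (escalating) and 12.8 (nonescalating), and Nrxn2 stood above Lrrtm2 in the escalating library, so the places of Nrxn2, Nlgn1 and Lrrtm2 depend on the transcripts assumed.

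Other properties of the genes moved little with the ratio. Genes in the fifth with the longest transcripts, which holds Nrxn2, Nrxn3, Nlgn1, Nlgn3 and Lrrtm2, had a median log2 ratio of -0.07, and those in the fifth with the shortest 0.10. In the fifth of lowest GC content, where Nlgn1 and Lrrtm2 lie, the median was -0.04. Lrrtm2 was at or above 9.05% of the genes in its length class and 8.92% of those in its GC class. In the GENCODE annotation another transcript, Gm21986, covers 3823 of the 9271 exonic bases of Nlgn3 on the same strand; it is not among the symbols counted. The antisense gene A830092H15Rik covers 1229 of 13422 bases of Nlgn1, and 889 of 13812 bases of Nrxn2 lie under exons of other genes on the opposite strand. Reads in more than 1 gene, which were counted for none, made up 8.06% of the escalating and 18.9% of the nonescalating library. Their part in the values of the 8 genes was not tested.

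Other genes of these contacts were taken from 4 lists of 101 genes, of which 90 were measured. In the escalating library 3 (3.33%) were higher and 18 (20.0%) were lower, beside 9.33% and 17.1% of all measured genes. The median log2 ratio was -0.30 beside 0.02 for all genes. Scaled to total reads, 10 (11.1%) rose past the threshold and 9 (10%) fell past it, beside 31.5% and 9.41% of all measured genes. The median was then 0.06 beside 0.38.

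Of 16 measured genes for other extracellular partners of neurexins and neuroligins, 5 (31.25%) were lower and 0 higher, with a median log2 ratio of -0.45. Beside them, 17.1% of all measured genes were called lower and 9.33% higher. With total-read scaling 2 (12.5%) were lower and 0 higher, beside 9.41% and 31.5% of all measured genes. The median log2 ratio was then -0.09 beside 0.38 for all measured genes. Cbln4, a secreted cerebellin that bridges neurexins to postsynaptic receptors, had 35 reads in the escalating library and 57 in the nonescalating library and was 2.13-fold lower (1.37 to 3.34). Dag1, which codes for dystroglycan, was 1.74-fold lower (1.62 to 1.87). The latrophilin gene Adgrl1 was 1.62-fold lower (1.56 to 1.68), while Clstn1, which codes for a calsyntenin, had a log2 ratio of -0.28. Dag1 is also expressed by astrocytes and vascular cells, whose lists had medians of -1.55 and -0.92; their part in its value was not tested.

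Of 21 presynaptic scaffold genes, which bind neurexin tails or build the release site, 2 were higher and 0 lower, with a median of -0.05; this list shares Syt1 with the pan-neuronal markers. The 9.52% called higher are close to the 9.33% of all measured genes, while 0 were called lower beside 17.1% of all measured genes. Scaled to total reads, 5 genes (23.8%) were higher and 0 lower, beside 31.5% and 9.41% of all measured genes. Lin7b, a small scaffold protein that forms a complex with Cask, had 305 reads in the escalating library and 120 in the nonescalating library and was 1.94-fold higher (1.57 to 2.42). Erc2, a protein of the active zone where transmitter is released, was 1.64-fold higher (1.54 to 1.75). The large active zone proteins Bsn and Pclo had log2 ratios of -0.55 and -0.27 and were not called.

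Of 19 measured postsynaptic scaffold genes, 4 were lower and 1 higher, with a median of -0.15. The 21.1% called lower are near the 17.1% of all measured genes, and the 5.26% called higher stand beside 9.33%. Scaled to total reads, 3 genes (15.8%) were lower and 5 (26.3%) higher, beside 9.41% and 31.5% of all measured genes. Those furthest from 0 belong to the layer that lies beneath excitatory receptors. Shank1 had 1470 reads in the escalating library and 2616 in the nonescalating library and was 2.33-fold lower (2.18 to 2.48). Shank3 had 1709 (escalating) and 2827 (nonescalating) reads and was 2.16-fold lower (2.04 to 2.30), and Dlgap3, whose product links Shank proteins to the PSD-95 family, was 2.17-fold lower (2.0 to 2.35). All 3 remained called lower with total-read scaling. Dlg2, of the PSD-95 family, had a log2 ratio of -0.54 and was not called.

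Of 34 measured genes of other synaptic adhesion families, 9 (26.5%) were lower and 0 higher, with a median of -0.45. Beside them, 17.1% of all measured genes were called lower and 9.33% higher. Scaled to total reads, 4 (11.8%) were lower and 0 higher, beside 9.41% and 31.5% of all measured genes. All 34 log2 ratios were below 0 with TMM scaling, beside 5935 of the 12213 measured genes. With total-read scaling 21 of the 34 were below 0, beside 3241 of the 12213. Pvrl3, a nectin, had 27 reads in the escalating library and 150 in the nonescalating library and was 7.27-fold lower (4.80 to 11.4). Cadm1, a synaptic cell adhesion molecule, was 2.45-fold lower (2.19 to 2.73), and Cdh2, which codes for N-cadherin, 2.09-fold lower (1.87 to 2.34). The abundant Cadm2 was 1.59-fold lower (1.51 to 1.67) and Ncam1 1.53-fold lower (1.45 to 1.60), neither of them called with total-read scaling. Several of these genes, Ncam1 and Cdh2 among them, are known from glia as well as neurons, and beside the astrocyte median of -1.55 their glial part was not tested.

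**Figure D4:**
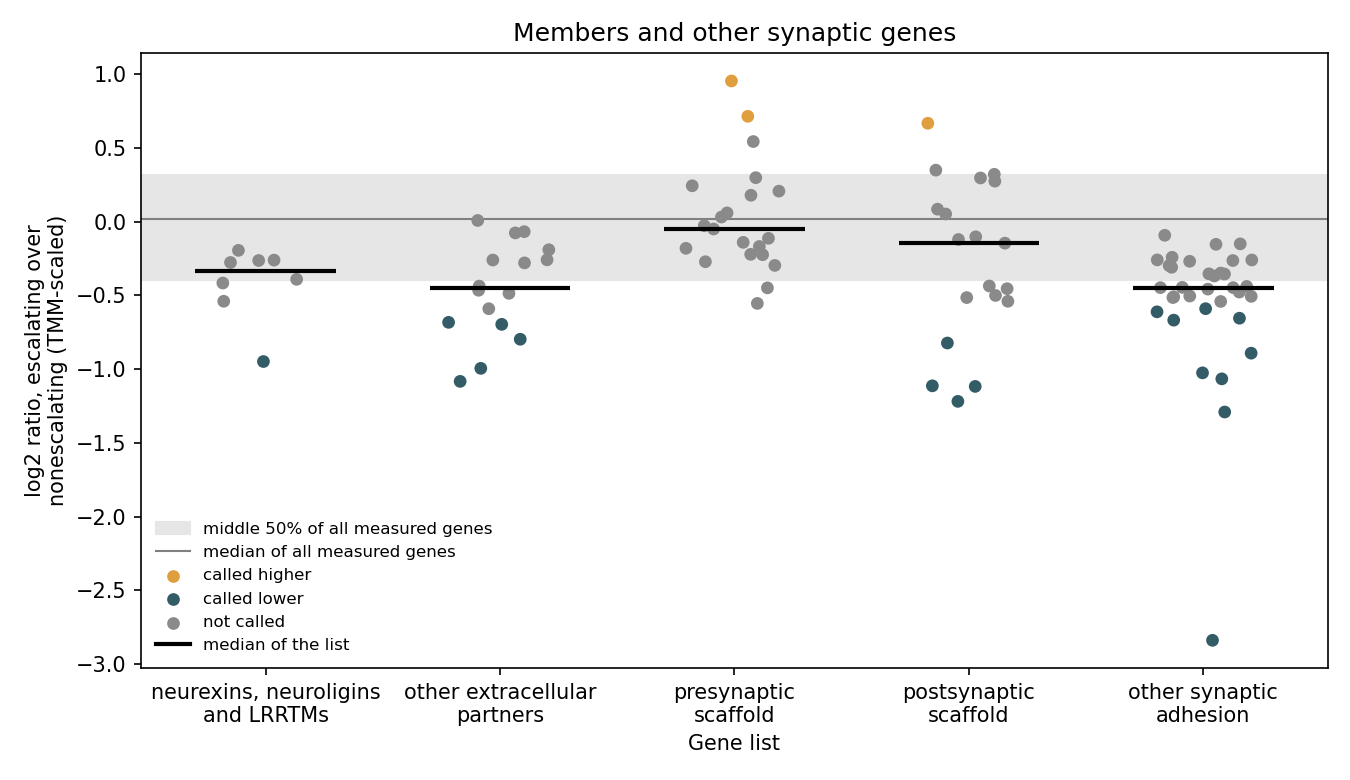
Log2 ratios (escalating over nonescalating, TMM scaling) of the 8 genes and of the measured genes in 4 lists of other synaptic genes; each point is a gene, black bars are list medians, and the grey band is the middle 50% of all measured genes. The medians of the 8 genes (-0.33), of the other extracellular partners (-0.45) and of other synaptic adhesion genes (-0.45) lie lower than those of the presynaptic (-0.05) and postsynaptic scaffold lists (-0.15).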

How the data were processed

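Per the submitters' processing notes, alignment to mm10 used STAR 2.0.0e and counting used HTSeq; annotation and strand setting are not stated in the sources read here. The files deposited by the authors hold raw counts per gene symbol. Reads assigned to no gene, to more than 1 gene or to more than 1 place made up 46.2% of the escalating and 44.7% of the nonescalating library and stayed out of library sizes; reads in no gene were 28.6% (escalating) and 18.1% (nonescalating), and reads in more than 1 gene 8.06% (escalating) and 18.9% (nonescalating).

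Counts were scaled with edgeR 4.0.16 (TMM). The log2 ratio used a pseudocount of 0.5; folds did not. Intervals are exact (Clopper-Pearson for ratios and shares, Poisson for levels, conditional for ratios within a library), at 95%. A gene was measured if its counts in both libraries summed to 50 or more. No count test was run, since each group has 1 library. The calls were tested on simulated data. The simulation held counting error only, so it cannot show how the calls stand against variation between animals. Lengths, GC content and coordinates came from GENCODE M21 on the same build as mm10, which gave a gene model for 92.7% of measured genes.

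The genes and lists were chosen with earlier results of these data known. The text names the 8 genes and, of each partner list, the 3 measured genes with the largest log2 ratio in size and the 2 with the most reads, plus the LRRTM host genes. Outside this rule, Lrrtm4 was named after its values were seen. Of each marker list the rule also names the 2 with the most reads, of which a selection is printed; Trem2 was named after its values were seen. By this rule 3 further partner genes would be named; their values are left out. Alternatives were DESeq2 1.42.0 size factors, total reads, centring on pan-neuronal genes, filters of 10 counts and of 1 count, a pseudocount of 5, a threshold of 2-fold and the longest transcript as length.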

Additional observations from a re-analysis of the deposited data

How the results depend on the processing

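DESeq2 size factors, lower filters and a pseudocount of 5 changed none of the values for the 8 genes and none of the counts of called genes beyond counting error or 1.5 times. With total assigned reads, the log2 ratios were -0.055 for Nrxn2, 0.17 for Nrxn3, -0.030 for Nlgn1, 0.10 for Nlgn2, -0.18 for Nlgn3, 0.10 for Lrrtm1, -0.59 for Lrrtm2 and 0.085 for Lrrtm3; 10 partner genes were called higher and 9 lower, and 3850 and 1149 of all measured genes. Centring on the pan-neuronal list gave -0.70 for Nrxn2, -0.48 for Nrxn3, -0.68 for Nlgn1, -0.55 for Nlgn2, -0.83 for Nlgn3, -0.55 for Lrrtm1, -1.24 for Lrrtm2 and -0.56 for Lrrtm3. There 4 of the 8 genes were called lower (Nrxn2, Nlgn1, Nlgn3 and Lrrtm2), with 1 partner gene higher and 45 lower, and 338 of all measured genes higher and 3519 lower, or 28.8%. At a threshold of 2-fold 0 of the 8 genes were lower, 0 partner genes were higher and 8 lower, and 246 of all measured genes were higher and 1091 lower, because fewer genes reach it. No paired analysis was possible because each group has 1 library. At this depth the interval of Lrrtm1, the gene with the fewest reads, runs from -0.44 to -0.09 log2. Differences much smaller than the width of that interval could not be told from counting error. Variation between animals was not measured, so the interval sets no limit for differences between the groups.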
